A study of Mus musculus with 8 samples.

Results

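The clock output regulators described here are 9 genes: the PAR bZIP transcription factors Dbp, Tef and Hlf, the bZIP repressor Nfil3, the basic helix-loop-helix repressors Bhlhe40 and Bhlhe41, the nuclear receptor Rora, the deubiquitinase Usp2 and the repressor Ciart. They were chosen by gene symbol, with earlier results of these data known, and the array held 14 of its 25697 probes for them. Liver RNA of 4 Bgn knockout and 4 wild type mouse samples was hybridised to Illumina bead arrays of 1 colour. All 8 were from males of 13 weeks that the labels place on a C57BL/6 background, and each sample gave 1 array. Bgn encodes biglycan, a small leucine-rich proteoglycan of the extracellular matrix. The deleted part of Bgn, the breeding of the wild type mice and the hour at which livers were taken are unknown here. Nothing in the labels says more than that the samples are separate, so p-values measure the spread between these samples. Whether each sample is a different mouse is not stated, and a sample is called a liver below. The comparison asks how the transcripts of these genes differ between the genotypes in adult male liver.

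In the mammalian clock, a BMAL1 and CLOCK dimer activates genes through E-box motifs, among them those of its own repressors and of output factors such as DBP and TEF. PAR bZIP factors activate target genes through D-box motifs, and NFIL3 binds the same motif as a repressor, so that the balance of both sets D-box transcription through the day. Retinoid-related orphan receptors such as RORA and their REV-ERB rivals (Nr1d1, Nr1d2) share another motif, the ROR element, through which Arntl (BMAL1) and Nfil3 are controlled. In liver, Dbp is among the transcripts that vary most with time of day, and PAR bZIP factors are known there for controlling enzymes of drug and lipid metabolism.

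The promoters of 4 members are shown because Dbp and Tef passed the test, Nfil3 had the opposite sign without passing, and Ciart holds the most E-boxes. The sequences are from RefSeq on GRCm38.p6 and run from 250 bases before to 50 after a gene's start. Capitals mark an E-box (CACGTG) or a ROR element (ANTAGGTCA).
Dbp, chr7:45704997-45705296, plus strand: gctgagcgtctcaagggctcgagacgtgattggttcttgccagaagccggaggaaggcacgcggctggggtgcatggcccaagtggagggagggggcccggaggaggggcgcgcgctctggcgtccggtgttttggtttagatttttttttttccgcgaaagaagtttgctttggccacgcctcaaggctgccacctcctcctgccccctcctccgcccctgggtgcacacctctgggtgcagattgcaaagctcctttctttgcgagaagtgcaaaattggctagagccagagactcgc
Tef, chr15:81802423-81802722, plus strand: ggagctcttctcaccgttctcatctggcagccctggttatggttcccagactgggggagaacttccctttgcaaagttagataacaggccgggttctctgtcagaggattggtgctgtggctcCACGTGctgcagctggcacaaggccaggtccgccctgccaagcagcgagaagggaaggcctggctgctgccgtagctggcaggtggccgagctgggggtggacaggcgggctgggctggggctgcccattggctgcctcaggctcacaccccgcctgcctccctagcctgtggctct
Nfil3, chr13:52980990-52981289, minus strand: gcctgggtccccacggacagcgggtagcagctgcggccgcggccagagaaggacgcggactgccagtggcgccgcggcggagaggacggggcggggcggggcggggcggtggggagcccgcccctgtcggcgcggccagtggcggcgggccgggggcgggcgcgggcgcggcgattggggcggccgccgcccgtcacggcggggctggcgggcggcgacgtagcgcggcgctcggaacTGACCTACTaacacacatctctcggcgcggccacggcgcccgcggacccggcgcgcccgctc
Ciart, chr3:95882179-95882478, minus strand: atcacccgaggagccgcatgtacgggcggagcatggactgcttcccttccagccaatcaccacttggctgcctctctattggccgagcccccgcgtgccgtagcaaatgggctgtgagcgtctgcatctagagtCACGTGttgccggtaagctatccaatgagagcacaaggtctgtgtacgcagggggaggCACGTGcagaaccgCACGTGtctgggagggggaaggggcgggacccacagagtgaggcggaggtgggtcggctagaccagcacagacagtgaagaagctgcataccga

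Both strands were searched for 4 motifs, and no 2 matches overlapped in these windows. The E-box CACGTG lay 3 times in the Ciart window, beginning 116, 58 and 44 bases before the start. It lay once in the Tef window, 127 bases before the start, once in the window of a second Tef start (138 bases before it) and once in that of Bhlhe41 (153 bases before it). Of all 32851 promoters in the table, 7.15% held this motif. The ROR element ANTAGGTCA was matched on the opposite strand of the Nfil3 window, 12 bases before the start, and was held by 0.661% of all promoters. No member window held the E-prime-box CACGTT (4.68% of all promoters) or the D-box as TTATGTAA or TTACGTAA (1.06%). The Dbp, Hlf, Rora and Usp2 windows held none of these letters, which says nothing of sites elsewhere in those genes. The Bhlhe40 promoter was not analysed here.

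Array quality bears on all that follows. The median deposited signal was 142 to 164 intensity units on the knockout arrays and 141 to 157 on the wild type arrays, and 11352 to 11901 and 11423 to 11910 probes were detected on them (detection p under 0.05). The number of arrays limits the precision. Bgn itself read 169 to 203 on the knockout arrays and 2901 to 4944 on the wild type arrays, so no label went against its array. Hepatocyte markers were detected for 7 of 7 genes with a probe, at a summed signal of 123940.4 to 138954 in knockout and 132647 to 141808 in wild type livers. Skeletal muscle markers, 9 of 9 detected on at least 1 array, summed to 65415 on knockout replicate 2, 16091 on knockout replicate 1 and 49876 on wild type replicate 4, and 1317 to 1481 on each of the remaining 5. When knockout replicate 2 and wild type replicate 4 were left out, a choice made after the data were seen, Dbp (-3.69) and Tef (-1.22) were again the members called.

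Of the 9 genes, 7 had a probe that could be tested, meaning a detection p under 0.05 on at least 4 of the 8 arrays. The signal was background-corrected with limma's normexp method, quantile-normalized and put on a log2 scale, and all 11494 tested probes of 8105 genes were fitted together. In Bgn knockout livers Dbp and Tef were lower, and no member was higher: 2 of 7 genes were called at a Benjamini-Hochberg adjusted p under 0.05, where 1.2% of all tested genes were called in either direction, 0.802% as lower and 0.395% as higher. Over probes, 2 of 8 were called, against 1.1% of all tested probes. The groups did not overlap for 3 of 7 genes (Dbp, Tef and Nfil3), against 8.66% of all tested genes. At an unadjusted limma p under 0.05 there were 3 lower genes and 1 higher gene, against 13.5% of all tested genes in either direction. Since the members were chosen with earlier results of these data known, these shares are a description and no test of the list. The median log2 change of the 7 genes was -0.31, and it was -0.0030 over all tested genes. The median of the members was moved by single arrays, to -0.64 without knockout replicate 4, -0.18 without knockout replicate 1, and -0.16, -0.54, -0.48 and -0.50 without wild type replicates 1, 2, 3 and 4, and it was -0.60 with array weights. In bulk tissue, fewer cells of a type and less RNA per cell cannot be told apart.

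**Figure D1:**
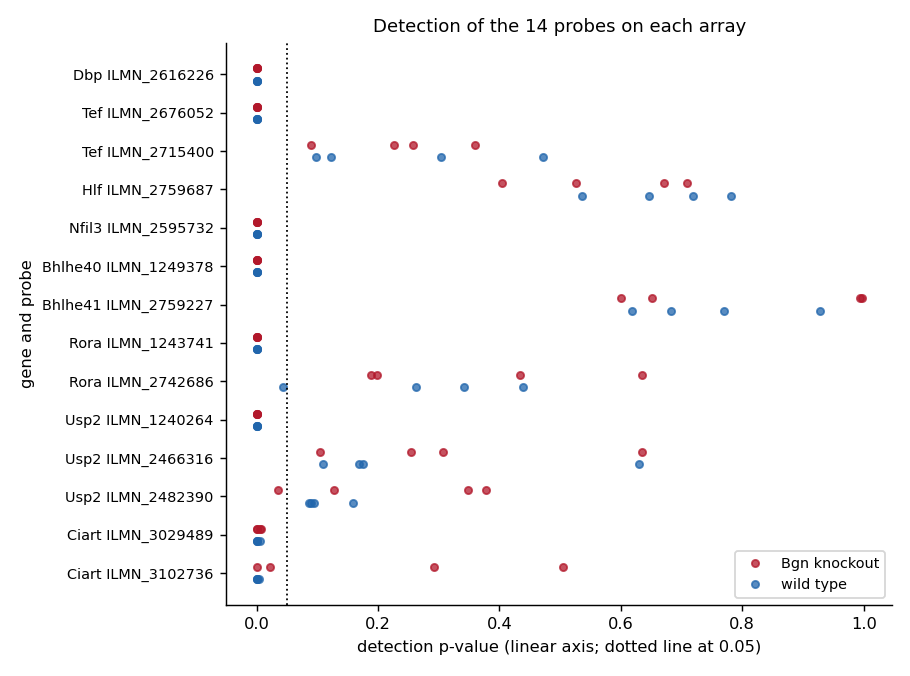
Detection p-value (x axis, linear) of each of the 14 probes (rows) on the 4 Bgn knockout arrays (red, upper dots) and the 4 wild type arrays (blue, lower dots), with a dotted line at 0.05. A total of 7 probes were detected on all 8 arrays, and the Hlf and Bhlhe41 probes lay at or above 0.405 on each array.

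The PAR bZIP activators come first. Dbp, named for a site in the albumin promoter that it binds, read 307, 302, 308 and 260.0 deposited intensity units in knockout livers, against 1809, 2234, 2313 and 1479 in wild type livers. All 4 knockout values were close together and lay far below the lowest wild type value. On the background-corrected log2 scale Dbp was 7.16, 7.15, 7.59 and 7.49 in knockout livers, against 10.98, 11.19, 11.09 and 10.27 in wild type livers. The change was -3.53 (SE 0.20, 95% interval -3.96 to -3.10; limma adjusted p = 8.01e-07), an 11.6-fold fall with n = 4 in each group. By p, Dbp ranked 8 of the 11494 tested probes. The probe stayed detected on all 4 knockout arrays, where the deposited mean was 15.0% of the wild type mean before any background was removed. Dbp had no second probe on the array, so its fall rests on ILMN_2616226 alone.

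Tef, the thyrotroph embryonic factor, a PAR bZIP activator that binds the same motif, also fell. Its probe ILMN_2676052 had log2 intensities of 8.36, 8.65, 8.71 and 9.09 in knockout livers, against 9.86, 9.80, 10.13 and 10.25 in wild type livers. The highest knockout liver, replicate 4, stayed below the lowest wild type liver. The change was -1.31 (SE 0.16, 95% interval -1.67 to -0.95; limma adjusted p = 0.00177), a 2.48-fold fall that ranked 26 of all tested probes. A second Tef probe, ILMN_2715400, annotated to another transcript, was detected on none of the 8 arrays, with deposited signals of 136 to 154 in knockout and 137 to 151 in wild type livers. The fall was thus measured on 1 of the 2 Tef probes.

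Dbp fell further than Tef. The log2 difference between the Dbp and Tef probes was -1.60 to -1.11 on the knockout arrays and 0.016 to 1.39 on the wild type arrays, and the difference was -2.22 for knockout minus wild type (exact two-sided permutation p = 0.0286, the smallest that the 70 assignments of 4 and 4 arrays allow). The difference of changes was -1.71 without background correction, again at the smallest permutation p. Hlf, the hepatic leukemia factor and last of the PAR bZIP genes, was not detected on any array. Its probe read 132 to 145 in knockout and 128 to 137 in wild type livers, with detection p-values of 0.405 to 0.781, so no fold is given and no comparison with Dbp or Tef was made.

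Nfil3, the repressor of D-box genes, had 11.64, 11.89, 11.46 and 12.26 in knockout livers, against 11.21, 11.09, 11.31 and 11.28 in wild type livers, all as log2 intensity. Each knockout liver was above each wild type liver, but replicate 3 of the knockout only narrowly. The log2 change was 0.59 (SE 0.15, 95% interval 0.26 to 0.92), the opposite sign to Dbp and Tef, and did not pass (limma adjusted p = 0.104; exact two-sided permutation p = 0.0286). It passed in limma with median scaling (adjusted p = 0.0495) and with array weights (0.041), while over all its alternatives the adjusted p was 0.041 to 0.419. The 4 wild type livers differed little from each other (SD 0.096) and the knockout livers more (SD 0.34).

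**Figure D2:**
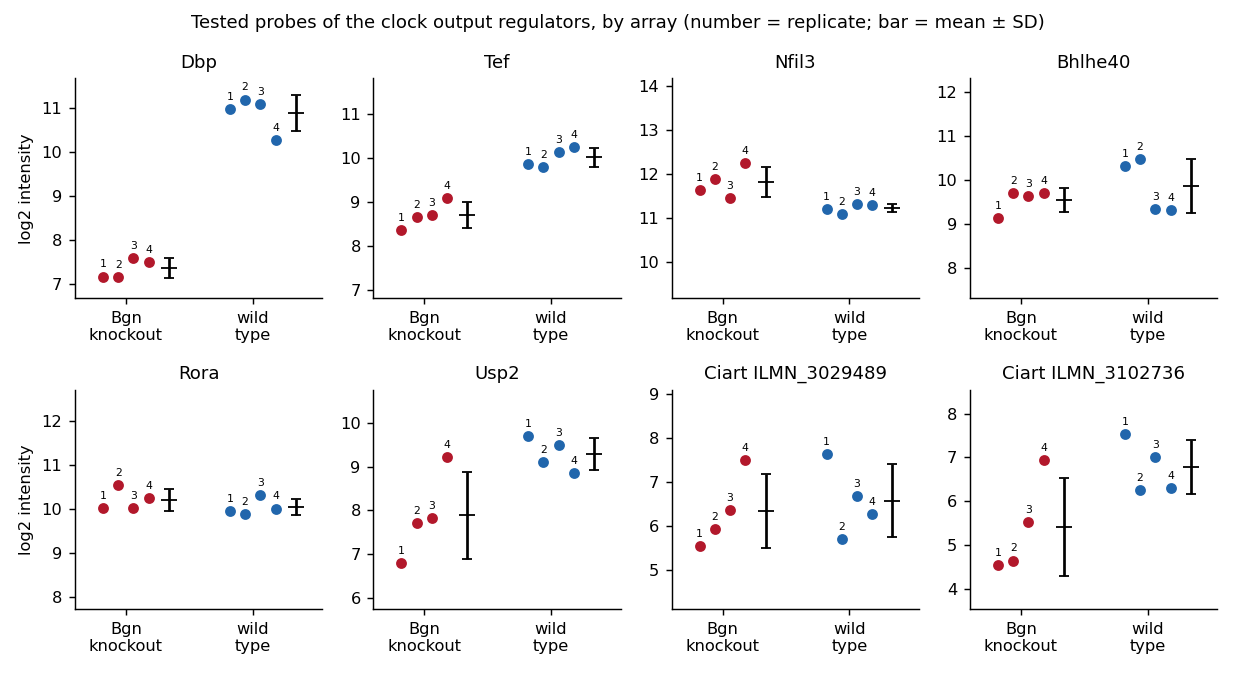
Background-corrected, normalized log2 intensity (y axis, each panel spanning 5 log2 units) of the 8 tested probes in the 4 Bgn knockout livers (red, left) and the 4 wild type livers (blue, right), each dot an array with its replicate number and the black bar the mean ± SD (n = 4). Dbp, Tef and Nfil3 do not overlap between the genotypes, and Usp2 and both Ciart probes are highest in the knockout on replicate 4.

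The basic helix-loop-helix repressors act on E-boxes. Bhlhe40 (DEC1) had 9.14, 9.70, 9.64 and 9.71 in knockout livers, against 10.31, 10.48, 9.35 and 9.31 in wild type livers. The groups overlapped, since wild type replicates 3 and 4 lay among the knockout values while replicates 1 and 2 lay above them. The log2 change was -0.31 (SE 0.28, 95% interval -0.95 to 0.32; limma adjusted p = 0.68). It was -0.18 without knockout replicate 1, -0.16, -0.11, -0.48 and -0.50 without wild type replicates 1, 2, 3 and 4, and -0.60 with array weights, and it passed in none of these. Bhlhe41 (DEC2) was not detected on any array, with deposited signals of 126 to 136 in knockout and 123 to 137 in wild type livers and detection p-values of 0.600 to 0.997.

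Rora, the activator at ROR elements, had 10.02, 10.55, 10.03 and 10.26 in knockout livers, against 9.96, 9.89, 10.32 and 10.02 in wild type livers. The groups overlapped, and the log2 change was 0.17 (SE 0.14, 95% interval -0.15 to 0.48; limma adjusted p = 0.653). Its highest value was on knockout replicate 2, the array with the most muscle signal. Wild type replicate 4 and knockout replicate 1, also high in muscle signal, were both at 10.02, the latter the lowest knockout value. The change was 0.056 without knockout replicate 2, 0.046 without it and wild type replicate 4, and 0.26 without wild type replicate 3. The part of muscle RNA in the Rora values was not tested. A second Rora probe for the same transcript was detected on wild type replicate 3 alone and was not tested.

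Usp2, a ubiquitin-specific protease whose transcript cycles in liver, differed widely among knockout livers. Its detected probe had 6.81, 7.71, 7.82 and 9.21 in knockout livers, against 9.69, 9.10, 9.49 and 8.86 in wild type livers. Knockout replicates 1 to 3 lay below all wild type livers, while knockout replicate 4 lay among them. The log2 change was -1.40 (SE 0.47, 95% interval -2.49 to -0.31) and did not pass (limma adjusted p = 0.267; exact two-sided permutation p = 0.0857). Without knockout replicate 4 it was -1.84 and passed (limma adjusted p = 0.0125), and over all alternatives the adjusted p was 0.0125 to 0.65. Another 2 Usp2 probes for the same transcript were detected on 0 and 1 of the 8 arrays and were not tested.

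Ciart (CHRONO), a repressor of the BMAL1 and CLOCK dimer, had 2 tested probes for 1 transcript, and they disagreed in size. Probe ILMN_3102736 had 4.55, 4.65, 5.52 and 6.94 in knockout livers, against 7.54, 6.27, 7.01 and 6.30 in wild type livers. It was detected on 2 of 4 knockout and 4 of 4 wild type arrays, and knockout replicates 1 and 2 were not well above background. Its log2 change was -1.36 (SE 0.54; limma adjusted p = 0.33), and without knockout replicate 4 it was -1.89 and passed (limma adjusted p = 0.0352). On knockout replicates 1 and 2 its detection p was 0.505 and 0.292. That pass was thus measured largely against background and is not read as a result. The size depended on how background was handled: the change was -0.85 with an offset of 50, -0.54 on the authors' values and -0.49 without background correction, and it passed in none of these. Probe ILMN_3029489 had 5.56, 5.93, 6.36 and 7.51 in knockout livers, against 7.65, 5.70, 6.69 and 6.29 in wild type livers. Here the groups overlapped, with a change of -0.24 (SE 0.51, 95% interval -1.40 to 0.91; limma adjusted p = 0.88), which turned positive without knockout replicate 1 (0.016) or wild type replicate 1 (0.11) and was -0.64 without knockout replicate 4. Averaged over both probes, the Ciart change was -0.80 (SE 0.53; limma adjusted p = 0.542).

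Within the knockout group, the Usp2 probe and Ciart probe ILMN_3029489, both detected on all arrays, were lowest on replicate 1 and highest on replicate 4, by 2.40 log2 units for Usp2 and 1.95 for Ciart. Ciart probe ILMN_3102736 was also highest on replicate 4, and no span is given for it because replicates 1 and 2 were not well above background. Tef was also lowest on replicate 1 and highest on replicate 4, by 0.73, and so was Bhlhe40, by 0.57, whereas Dbp spanned only 0.44 and was highest on replicate 3. In wild type livers the Usp2 probe and both Ciart probes were highest on replicate 1. The deposited medians of these arrays ran the other way, at 164 on knockout replicate 1 and 142 on knockout replicate 4, and the deposited Usp2 signal before any normalization was 268 and 590.0 on them. The part of array brightness in these values was not tested.

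**Figure D3:**
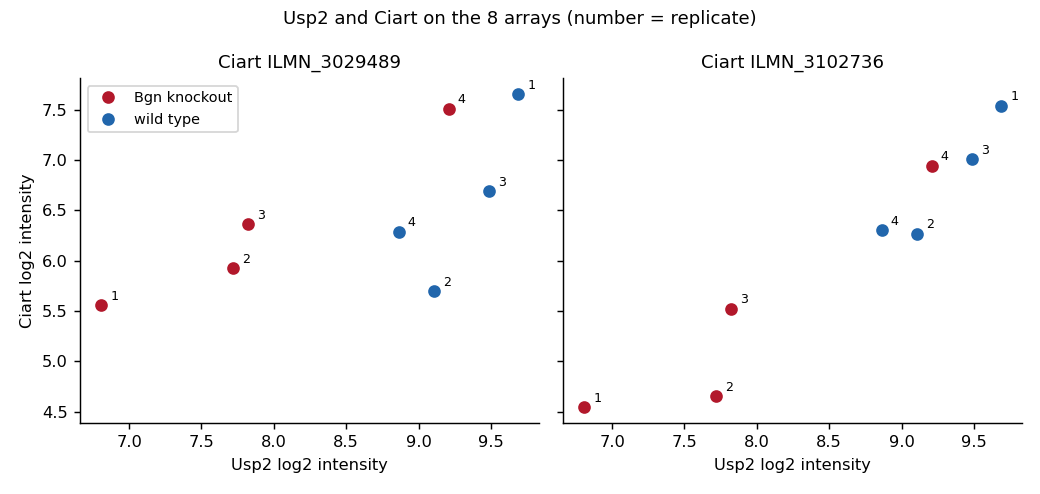
Log2 intensity of Usp2 (x axis) against each tested Ciart probe (y axis) on the 4 Bgn knockout arrays (red) and the 4 wild type arrays (blue), numbered by replicate. Knockout replicate 4 lies among the wild type arrays for Usp2 at 9.21, while knockout replicate 1 has the lowest Usp2 value, 6.81.

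The genes whose pattern over the 8 arrays was most like each of 3 members were found by the root mean square (RMS) difference of log2 values, each probe centred on its own mean. This measure includes the genotype difference and is a description. For Dbp, whose own RMS deviation was 1.79, the closest were Taf12 (0.49), Cxadr (0.53), Sytl1 (0.64), Mrps27 (0.65) and Zfp738 (0.65), with log2 changes of -4.18 to -2.38. For Tef (own deviation 0.69) they were Plekhf2 (0.20), Slc25a34 (0.20), Serpina1c (0.23), Sash3 (0.23) and Hmox2 (0.25). No clock gene was among either set. The likeness holds for single probes: Taf12 and Cxadr each had another 2 tested probes, with log2 changes of -0.09 to 0.17, and Plekhf2 had 1, at -0.11, and 0 of these 5 were called. Such a comparison of probes, added after the values were seen, could not be made for Dbp, which has 1 probe, or for Tef, whose other probe was not detected. For Usp2 (own deviation 0.95) the closest were Eif4ebp3 (0.25), Ciart by probe ILMN_3102736 (0.30), Srpr (0.39), Nnmt (0.40) and Junb (0.43), and 0 of these 5 passed the threshold. The likeness to Ciart includes knockout replicates 1 and 2, where that Ciart probe was not detected. Ciart and Nnmt each had another tested probe, at -0.24 and -0.78, against -1.36 and -1.02 for the probes listed here. Along the chromosomes, 0 of the 10 nearest tested genes around each of the 7 tested members were called, against 1.2% of all tested genes. In sets of 10, 0 calls lie near that share and do not show that neighbours were unchanged. The groups did not overlap for 2 neighbours of Dbp, 2 of Nfil3 and 1 each of Rora, Usp2 and Ciart. For Tef and Bhlhe40 there were 0, and the share of all tested genes was 8.66%. The largest change beside Dbp was that of Fgf21, named after its value was seen, at -1.68 (SE 1.16; limma adjusted p = 0.584).

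The core clock loop was set beside its outputs. Of 16 listed genes, 10 were tested, of which 1 was lower, 1 was higher and 8 did not pass, against 1.2% of all tested genes called. With the called genes included, 5 were lower and 1 was higher at an unadjusted limma p under 0.05, against 13.5% of all tested genes. The groups did not overlap for 5 of the 10 loop genes, against 8.66% of all tested genes. This list too was chosen with earlier results of these data known. Nr1d1 (REV-ERB alpha), the repressor at ROR elements, had 8.17, 7.30, 8.84 and 8.46 in knockout livers, against 9.54 to 10.18 in wild type livers, and fell by 1.66 on the log2 scale (SE 0.30; limma adjusted p = 0.0325). Arntl, which encodes BMAL1, had 8.30, 8.54, 8.13 and 8.04 in knockout livers, against 6.82, 7.30, 7.50 and 7.55 in wild type livers, and rose by 0.96 (SE 0.19; limma adjusted p = 0.0306). The genotypes did not overlap for either gene. A second Nr1d1 probe had -1.27 (SE 0.45) and did not pass (limma adjusted p = 0.282). Each call ended without 6 of the 8 arrays taken singly: the Nr1d1 call remained without knockout replicate 2 or 3 and the Arntl call without knockout replicate 4 or wild type replicate 4, with limma adjusted p up to 0.0991 for Nr1d1 and 0.133 for Arntl. The Nr1d1 call also ended when dim probes were kept in (limma adjusted p = 0.0531). The Arntl call also ended with median scaling (limma adjusted p = 0.0505), with plain eBayes (0.0538) and without knockout replicate 2 and wild type replicate 4 together (0.13), and without background correction its change was 0.61.

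Of the loop genes that did not pass, 3 were picked after their values were seen. Per2, a repressor of the dimer, had -0.87 (SE 0.24; limma adjusted p = 0.129), and knockout replicate 4 was its lowest array at 6.85. Nr1d2 had -0.63 (SE 0.18; limma adjusted p = 0.145), and Cry2 had -0.57 (SE 0.20; limma adjusted p = 0.255). Dbp had a change of -3.53 and Tef of -1.31, against a range of -1.66 to 0.96 over the 10 loop genes. The median log2 change of the loop genes was -0.18. It was -0.30 without knockout replicate 1 or 3 and -0.36 without wild type replicate 2, each over 9 tested genes in place of 10. Over 10 genes without background correction it was -0.11, and over 14 genes with no filter on dim probes it was -0.036. Over all alternatives it was -0.36 to -0.036. Where the number of tested genes differs, a change in the genes cannot be told apart from a change in their values.

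**Figure D4:**
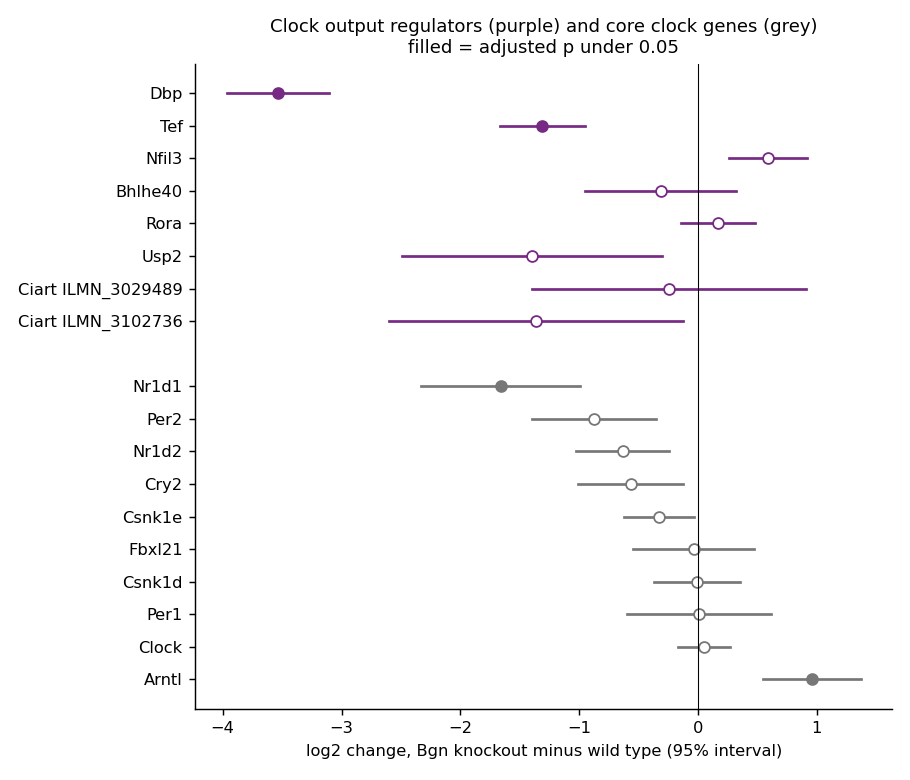
Log2 change, Bgn knockout minus wild type (x axis), with its 95% interval for the 8 tested probes of the output regulators (purple) and the brightest probe of the 10 tested core clock genes (grey), where filled dots have a limma adjusted p under 0.05. Dbp at -3.53 lies furthest from 0, Tef at -1.31 and Nr1d1 at -1.66 follow among filled dots, and Arntl at 0.96 is the filled dot above 0.

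**Figure D5:**
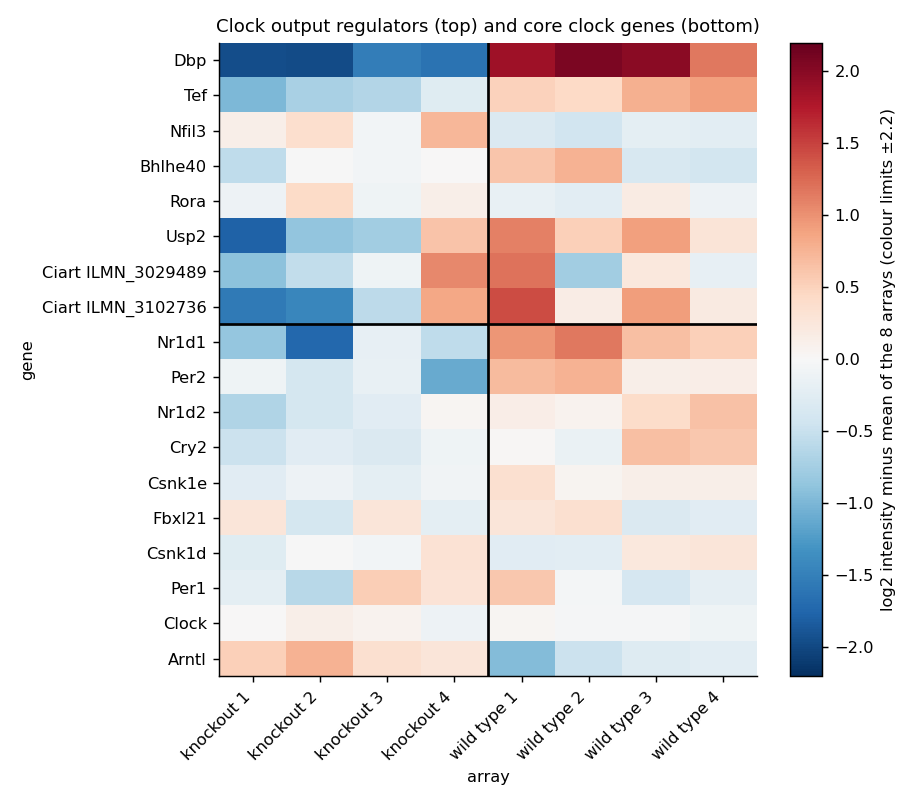
Log2 intensity minus the mean of the 8 arrays (colour, limits ±2.2) for the output regulators (upper rows) and core clock genes (lower rows), with the 4 Bgn knockout arrays on the left and the 4 wild type arrays on the right. Dbp is below its mean on all 4 knockout arrays, while Usp2 and both Ciart probes are above theirs on knockout replicate 4.

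Genes that PAR bZIP factors are known to control in mouse liver were set beside Dbp and Tef. Of 18 listed, 13 were tested and 0 were called, against 1.2% of all tested genes. At an unadjusted p under 0.05 in limma, 2 were lower and 1 was higher, against 13.5% of all tested genes in either direction. In a list this short, 0 calls lie near the share of all genes and do not show that the targets were unchanged. The median log2 change was 0.092, and it was -0.17 without knockout replicate 4, so its sign depends on that array. It was also below 0 without wild type replicate 1 (-0.069) or 2 (-0.020) and, over 15 genes in place of 13, with no filter on dim probes (-0.014). Cyp2a5, a coumarin hydroxylase, had by its brightest probe 13.96, 13.71, 14.10 and 14.07 in knockout livers, against 14.26, 14.29, 14.26 and 14.33 in wild type livers. Its groups did not overlap, and the change of -0.33 (SE 0.086) did not pass (limma adjusted p = 0.111), though it did with array weights (0.0488) and with median scaling. Cyp4a14, a fatty acid hydroxylase, had -3.12 (SE 1.01; limma adjusted p = 0.276), with knockout livers at 8.55 to 12.58 and wild type livers at 12.28 to 14.60. Cyp2b10, a drug-metabolising enzyme, had 0.87 (SE 0.36; limma adjusted p = 0.35).

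Genes controlled through ROR elements or E-boxes and temperature-responsive genes came next. Over all tested genes, 1.2% were called and 13.5% had an unadjusted limma p under 0.05, in either direction. In lists as short as these, 0 or 1 call is too few to read as a result. Of 11 tested genes controlled through ROR elements, Arntl was the 1 called, with 2 lower and 2 higher at an unadjusted p under 0.05 in limma and a median log2 change of 0.054. That median was 0.018 without knockout replicate 2, again over 11 genes. Over 10 tested genes it was 0.14, 0.0090 and 0.085 without wild type replicates 1, 3 and 4, and 0.15 without knockout replicate 4. Of 7 tested other genes with E-box control, 0 were called and 1 was higher at an unadjusted p under 0.05 in limma, Tsc22d3, with 0.36 (SE 0.14; adjusted p = 0.279). Pfkfb3, a regulator of glycolysis, had -0.28 (SE 0.22; limma adjusted p = 0.622) and Nampt, an enzyme of NAD synthesis, had -0.30 (SE 0.25; limma adjusted p = 0.652). Of 8 tested heat shock and temperature-responsive genes, whose liver rhythm follows body temperature, 0 were called, with 1 lower and 1 higher at an unadjusted p under 0.05 in limma. Hsph1, a heat shock chaperone, had -0.68 (SE 0.18; limma adjusted p = 0.118). The mitochondrial chaperonin genes Hspe1 and Hspd1 had 0.31 (SE 0.12; limma adjusted p = 0.309) and 0.19 (SE 0.099; limma adjusted p = 0.435). The groups did not overlap for 2 of the 8 genes, Hsph1 and Hspe1, against 8.66% of all tested genes.

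Other cell types were checked because Nfil3 and Rora are also transcribed in lymphocytes and Rora in muscle. The sums are of deposited intensity over all probes of a list, undetected ones too, with background left in. For lymphocyte markers, with 4 of 8 genes on no array, they say little of cell content. Kupffer cell markers, 5 of 5 genes with a probe detected, summed to 3262 to 4396 in knockout and 3404 to 5049 in wild type livers. Lymphocyte markers were detected for 4 of 8 genes, with Gzma, Ptprc, Cd79a and Ms4a1 on no array, and summed to 1313 to 1479 in knockout and 1246 to 1558 in wild type livers. Endothelial markers (5 of 6 detected, Kdr on no array) summed to 6819 to 9946 in knockout and 6068 to 7901 in wild type livers. Stellate cell markers (5 of 5) summed to 10086 to 14394 in knockout and 9090 to 14795 in wild type livers. Erythroid markers (2 of 2) summed to 13208 to 24070.3 in knockout and 23509 to 29753 in wild type livers. None of the tested markers was called (5 Kupffer, 5 endothelial, 5 stellate, 2 lymphocyte and 2 erythroid genes), against 1.2% of all tested genes. In lists this short, 0 calls lie near that share. At an unadjusted limma p under 0.05, 2 Kupffer genes and 1 endothelial gene were lower, against 13.5% of all tested genes in either direction. Changes were below 0 for all 5 Kupffer, 3 endothelial, 2 stellate, 1 lymphocyte and 2 erythroid genes. The part of these cell types in the values of the members was not tested.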

How the data were processed

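Total RNA of 8 liver samples was labelled with biotin for Illumina bead arrays, per the labels' protocols. The deposited raw table gives, per the file headers, each probe's mean intensity per array beside its detection p-value. The lowest deposited intensity was 109, so background was still in it. The authors' normalized table is linear, in the rank order of the raw table, with column medians of 155.9 to 156.6 and no stated method. Per the submitters' processing notes, the tools were R 2.15.0 and lumi 2.10.0, with no step given. Columns were matched to samples through the sample descriptions.

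With limma 3.58.1 under R 4.3.3, neqc was run on the raw intensities (background from the detection p-values, offset 16, quantile normalization, log2), then lmFit and eBayes with trend and robust variance. Adjustment was Benjamini-Hochberg over 11494 probes, with a threshold of 0.05. A gene was taken by its brightest tested probe. The difference between Dbp and Tef was tested by exact permutation, and such a p-value is given beside that of limma for Nfil3 and Usp2. The fit was tested on simulated data. The platform table named 1 gene for 23978 probes and none for 1719, and 23962 matched the GRCm38.p6 gene table, which gave gene order. Promoters came from RefSeq for 8 of the 9 members. Of 3 planned comparisons between PAR bZIP genes, 1 was made, since Hlf was not detected. Plots used matplotlib 3.10.9 (Python 3.11.15).

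Named genes are all members, the called genes of each list (or those with the smallest p where none was called) and the 5 closest patterns, and exceptions are stated. The members and lists were chosen with earlier results of these data known. Alternatives covered background correction, the offset, scaling between arrays, the authors' values, the filter on dim probes, plain eBayes, weights per array, a replicate block, averaged probes and the omission of each array.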

Additional observations from a re-analysis of the deposited data

Results flagged for a closer look

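Bhlhe40 was 9.144 on Bgn knockout replicate 1, against 9.641 to 9.71 for knockout replicates 2 to 4, as log2 intensity. Dixon's test at the 95% level singled it out as far from the rest of its genotype. Of 16 sets of 4 values (8 tested member probes in each genotype), 1 was singled out, and chance gives about 1 in 20 (0.8 expected here).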

How the results depend on the processing

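Dbp and Tef were called under all 19 alternatives, with log2 changes of -3.74 to -2.81 and -1.43 to -1.09. Of 151 recomputed changes of single member probes, 145 kept their direction and side of the threshold. Nfil3 passed with median scaling and array weights, and Usp2 and Ciart probe ILMN_3102736 without knockout replicate 4, where 4 member probes were called in place of 2 (2 to 4 over single omissions). The pass of that Ciart probe rested on knockout values near background. The change of Ciart probe ILMN_3029489, -0.24, was 0.016 without knockout replicate 1 and 0.11 without wild type replicate 1 (-0.64 to 0.11 over single omissions), and the cause was not tested. The number of called probes, 127, was 197 with array weights and 64 with the replicate block. It was 59 to 121 when single arrays were left out, and lower by over 1.5 times without knockout replicate 1 (81), 2 (59) or 3 (68) or wild type replicate 1 (62) or 3 (67). Without knockout replicate 2 and wild type replicate 4 together it was 48, with fewer samples, and the difference between Dbp and Tef was -2.47 (exact permutation p = 0.1, the smallest possible with 3 and 3 arrays). Nothing in the labels pairs the samples by replicate number. Deviations of same-numbered arrays correlated at -0.30 to 0.057, which cannot show that the samples were unpaired. The replicate block ended the calls of Nr1d1 and Arntl (limma adjusted p = 0.124 and 0.12) but of no member. These 2 calls also ended under other alternatives, given beside them. No chip block was fitted, since the columns name no chips. For the 6 of 14 member probes that were not tested, signal near background limits what the arrays can show.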
